A study of Caenorhabditis elegans with 9 samples.

Results

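The transcript levels of *Caenorhabditis elegans* L1 larvae fed *mep-1* dsRNA were compared with those of L1 larvae fed *gfp* dsRNA, over all genes on the array and with the falls and the changes of moderate size set beside the largest rises. The comparison rests on 6 of the 9 arrays of the series, 3 of *mep-1(RNAi)* and 3 of *gfp(RNAi)* larvae, chosen by their labels, and the labels give each group an array from batches 1, 2 and 3. All groups were wild-type worms of the N2 Bristol strain, and RNAi was done by feeding HT115 bacteria that express the dsRNA, to the parents from the L4 stage on and then to their progeny, at 25 °C. Embryos obtained by bleaching hatched without food, and the L1 larvae were fed the same bacteria for 3 h before RNA was taken from 40 to 50 µl of packed worms, according to the labels. The *mep-1* insert was 900 bp long. The *gfp* dsRNA, which has no target in these worms, served as the reference. The remaining 3 arrays, of larvae fed *let-418* dsRNA, were compared with the same *gfp(RNAi)* arrays in the study. They entered the fit only for the estimate of the spread and appear below where the *mep-1(RNAi)* arrays were tested against them.

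MEP-1 is a Krüppel-type zinc finger protein that binds the Mi-2 chromatin remodeling ATPase LET-418 and the histone deacetylase HDA-1, in what is called the MEC complex. Chromatin remodelers of this kind move nucleosomes and, with their partners, keep genes silent in cells where they should not be active. Worms that lack MEP-1 arrest as larvae, and their somatic cells express components of P granules, the ribonucleoprotein granules that are normally found in germ cells only. The RNA here came from whole larvae, in which somatic cells far outnumber the pair of primordial germ cells.

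RNA levels were read from Affymetrix *C. elegans* Genome Arrays, where a probe set of short oligonucleotides reports 1 transcript, and the 2 µg of total RNA of each sample gave 1 signal for each of 22548 probe sets. Signals are given after each array was scaled to the same trimmed mean. Of the probe sets, 20766 named 1 gene, and through them 17118 genes were measured, each by its brightest probe set. The Pearson correlation of log2 signals between arrays of 1 group was 0.950 to 0.959 for *gfp(RNAi)* and 0.949 to 0.954 for *mep-1(RNAi)*. A change was called at an adjusted p under 0.05 (limma, Benjamini-Hochberg over all probe sets) and a fold change of at least 2, and all fold changes are of *mep-1(RNAi)* against *gfp(RNAi)* unless stated. In whole-larva RNA, fewer cells of a type and less RNA per cell cannot be told apart.

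The transcript of the targeted gene was not lower in larvae labelled *mep-1(RNAi)*. The brighter of the *mep-1* probe sets read 1555, 1529 and 1407 in *gfp(RNAi)* larvae and 1502, 1614 and 1579.6 in *mep-1(RNAi)* larvae, a log2 fold change of 0.07 (SE 0.12, adjusted p = 0.78). The other probe set read 834, 1178 and 1057 against 992, 931 and 1476, with a log2 fold change of 0.13 (SE 0.19, adjusted p = 0.71). Both ranges overlap. The arrays therefore do not show how far *mep-1* mRNA was depleted, the position of the dsRNA relative to the probes was not examined, and the groups are named by their labels throughout. Neither partner gene was called. *let-418* read 815, 1012 and 917 against 855, 1139 and 1043, with a log2 fold change of 0.14 (SE 0.18, adjusted p = 0.67), and its groups overlapped. The bright probe set of *hda-1* had a log2 fold change of 0.09 (SE 0.16, adjusted p = 0.78), with groups that overlapped. A second one near the floor of the array read 1.101, 3.18 and 3.53 against 10.5, 9.69 and 10.8, which do not overlap, with a log2 fold change of 2.16 (adjusted p = 0.12). Of 11 genes that encode subunits of MEC and NuRD complexes or homologues of these subunits, 0 were called. Of 22 synthetic multivulva genes, a class of chromatin regulators found through vulval fate, 0 were called. In these lists 1 and 2 genes, in that order, passed the p threshold under the fold limit. Over all genes 10.6% were called, and at that share lists this short would hold few calls, so the counts do not set these genes apart.

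The study designed qRT-PCR primers for some of the transcripts described below, and 5 pairs are shown because they identify transcripts that rose or fell on the arrays. Each is written 5′ to 3′ in lower case with no letters marked, left primer first, and the position of each within the probed region was not examined. *pals-28* (chromosome III), *him-3* (chromosome IV) and *pgl-1* (chromosome IV) rose, and *ttr-17* (chromosome IV) and *alh-7* (chromosome II) fell.
pals-28 left: gcgctaatggaagcacaga
pals-28 right: tcgtttagcgtcttgccttt
him-3 left: aataacggaatcgacacgaa
him-3 right: ccggtgaagtttcttgattg
pgl-1 left: gaaacagttgatgttggatgg
pgl-1 right: ctcgaaaagttgagcgatatg
ttr-17 left: aacaaggaaggagaattcgag
ttr-17 right: acatcctggtttggtattgc
alh-7 left: gagaaggccgtccactcag
alh-7 right: ctagctcggtttcacgttgg

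Rises outnumbered falls at every level of signal. Of the 22548 probe sets, 2273 were called (10.1%), 1529 higher (6.78%) and 744 lower (3.3%). Over genes the count was 1819 (10.6%), with 1241 higher (7.25%) and 578 lower (3.38%), and 1818 of them had the same sign in all 3 batches. The signals of the groups did not overlap in 1807 of the called genes, while 34.4% of all genes had groups that did not overlap. Over all probe sets the log2 fold changes had a median of 0.02, which became -0.07 after quantile normalization and -0.27 for the signals as deposited, and rises made up 67.3%, 58.1% and 52.2% of the calls in that order. The genes were then ordered by their geometric mean signal over all 9 arrays, a measure that does not rest on the controls alone, and split into 4 equal bins at signals of 18.4, 95.2 and 375. In the dimmest bin 2.41% of genes rose and 1.50% fell, and in the next 10.3% rose and 4.56% fell. In the third bin 11.19% rose and 4.46% fell, and in the brightest 5.07% rose and 2.99% fell. Rises thus outnumbered falls in each bin. Differences between the bins were not tested.

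**Figure D1:**
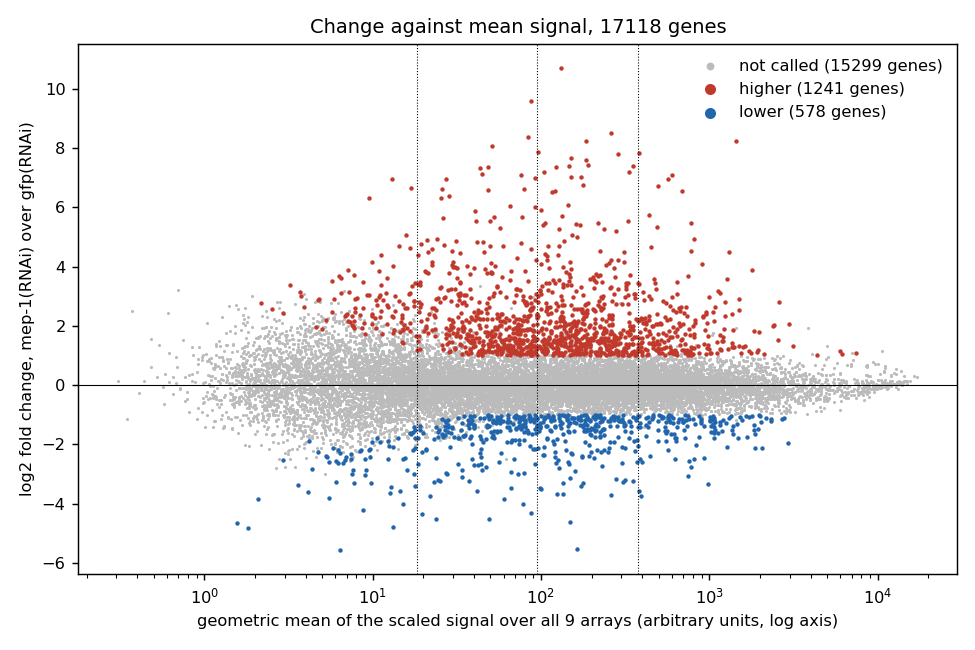
Log2 fold change (vertical) against the geometric mean signal over all 9 arrays (horizontal, log scale) for 17118 genes, each a point, with the 1241 called higher in red, the 578 called lower in blue and the others in grey. Dotted lines mark the borders of the 4 bins of mean signal (18.4, 95.2 and 375), and red points outnumber blue ones in each bin.

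Most called changes were of moderate size. Of the 1241 rises, 465 were 2- to 3-fold, 214 were 3- to 4-fold, 309 were 4- to 8-fold, 132 were 8- to 16-fold and 121 were larger, so that 54.7% lay under 4-fold. Of the 578 falls, 332 were 2- to 3-fold, 85 were 3- to 4-fold, 108 were 4- to 8-fold, 40 were 8- to 16-fold and 13 were larger, so that 72.1% lay under 4-fold. The median fold of the called rises was 3.67 and that of the called falls 2.81. Gene groups described below differed in this respect, though the differences were not tested. Under 4-fold were 17 of the 29 rises of collagen genes, 7 of the 9 rises of meiotic recombination genes, 15 of the 19 falls of C-type lectin genes, 15 of the 25 falls of glutathione S-transferase genes and 14 of the 19 falls of UDP-glucuronosyltransferase genes. By contrast, 1 of the 20 rises of pathogen response genes, 1 of the 11 rises of Argonaute genes and 5 of the 19 rises of germline translation genes lay under 4-fold.

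The largest rises, among genes that reached a mean signal of 200 in *mep-1(RNAi)* larvae, began from signals near the floor of the array. *pals-28*, a member of a family whose transcripts accumulate in worms infected by microsporidia or Orsay virus, read 1.14, 1.30 and 0.935 in *gfp(RNAi)* larvae and 1357, 1690.3 and 2804 in *mep-1(RNAi)* larvae, a log2 fold change of 10.70 (SE 0.27, adjusted p = 1.7e-09). *pals-2*, of the same family, read 5.47, 1.33 and 0.892 against 407, 728 and 831. *ddn-1* read 21.9, 38.1 and 48.6 against 8847, 11066 and 11321, a log2 fold change of 8.23 (SE 0.25, adjusted p = 6.3e-09), and was the called gene with the largest gain in signal. In each of these the highest control lay far below the lowest *mep-1(RNAi)* array. The 8 largest also held *F49H6.5*, *F57G4.11*, *droe-8*, *F26D11.13* and *Y94H6A.2*, and their log2 fold changes ran from 7.86 to 10.70. These sizes depend on how low signals are treated. With an offset of 21.1 added before log2 they ran from 4.00 to 7.53, and all 8 were called. Leaving out *gfp(RNAi)* replicate 2 moved *F57G4.11* from 8.51 to 7.37, *droe-8* from 8.25 to 7.17 and *F26D11.13* from 8.06 to 8.70, and leaving out *gfp(RNAi)* replicate 1 moved *pals-2* from 8.39 to 9.17.

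The largest falls are given for genes with a mean signal of at least 200 in *gfp(RNAi)* larvae, a limit that leaves out falls of similar size from dimmer genes, such as those of *lbp-8* (-4.84) and *cyp-13A7* (-4.36). *C06E4.3* read 1613, 1449.6 and 2371 in *gfp(RNAi)* larvae and 34.5, 41.01 and 40.3 in *mep-1(RNAi)* larvae, a log2 fold change of -5.52 (SE 0.21, adjusted p = 3.7e-08), and *C06E4.6* read 359, 296 and 332 against 22.9, 28.4 and 17.9. *irg-2*, an infection response gene, read 1717, 1592 and 2151 against 93.6, 118.9 and 225, with a log2 fold change of -3.73 (SE 0.28, adjusted p = 3.5e-06). Every control lay well above every *mep-1(RNAi)* array in all 3. *dod-3*, found as a gene downstream of the insulin-pathway factor DAF-16, read 1767, 1306 and 655 against 51.6, 68.6 and 28.1, a log2 fold change of -4.63 (SE 0.38, adjusted p = 7.9e-06). *ilys-5*, an invertebrate-type lysozyme gene, read 1718, 967 and 630.1 against 102.7, 89.7 and 50.97, a log2 fold change of -3.71 (SE 0.34, adjusted p = 1.9e-05). In both, batch 3 had the lowest signal of each group, and the groups did not overlap. The others were the cytochrome P450 genes *cyp-13A4* and *cyp-33D3* and *R05A10.1*. *cyp-13A4* read 223, 178 and 300.0 against 29.8, 29.4 and 1.09, and its log2 fold change of -4.54 became -2.95 without *mep-1(RNAi)* replicate 3, the array with the lowest signal.

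**Figure D2:**
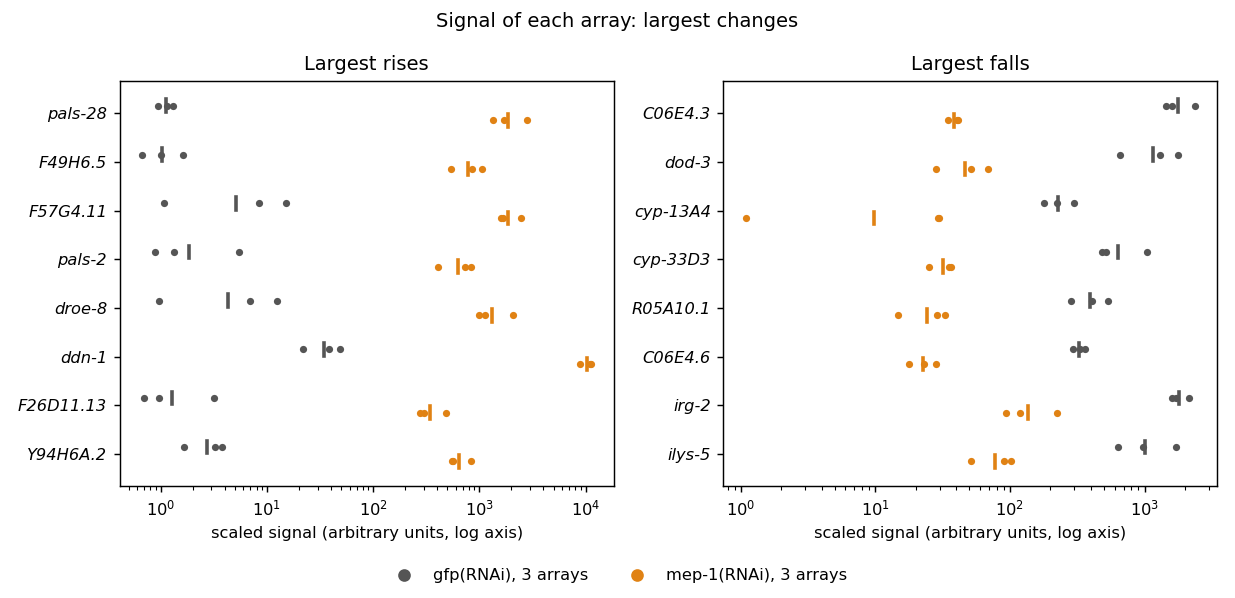
Scaled signal (log scale) of the 8 largest rises (left) and 8 largest falls (right) among genes with a mean of at least 200 in the higher group. Dots are single arrays, 3 for each group, and bars the geometric mean of 3. The controls of the rises lie near the floor of the array, and *mep-1(RNAi)* signals of the falls lie far below those of their controls.

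Among the changes of 2- to 4-fold, the ones best resolved against the spread came from different functions. *tyr-4*, a tyrosinase-like gene, read 266, 299 and 278 in *gfp(RNAi)* larvae and 987, 1326 and 995 in *mep-1(RNAi)* larvae, a log2 fold change of 1.96 (SE 0.16, adjusted p = 5.8e-06). *fmo-1*, which encodes a flavin-containing monooxygenase, read 310.4, 329.7 and 338 against 987, 938 and 969, a log2 fold change of 1.57 (SE 0.12, adjusted p = 5.1e-06). *toh-1*, a tolloid-like astacin protease gene, read 203, 158.5 and 193 against 616, 705 and 657. Arrays within each group lay close together in these genes and the groups were well apart, which a choice by smallest p favours. The other rises of smallest p were *C36B1.11* (1.99), *ZK896.1* (1.99), *nduf-2.2* (1.88), the cytochrome P450 gene *cyp-13A2* (1.73) and *mab-21* (1.57), which is required for the fate of male sensory rays.

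The 8 falls of this size with the smallest p are given in the same way. *gst-5*, a glutathione S-transferase gene and the largest loss of signal among called genes, read 7861, 6113 and 6393 against 1582, 1822 and 1826, a log2 fold change of -1.96 (SE 0.16, adjusted p = 8.4e-06). *mrp-2*, an ABC transporter gene, read 1652, 1408 and 1749 against 488, 362 and 542, a log2 fold change of -1.80 (SE 0.17, adjusted p = 2.5e-05). *gpx-2*, a glutathione peroxidase gene, read 489, 472 and 530.1 against 136, 149 and 153, a log2 fold change of -1.77 (SE 0.14, adjusted p = 6.0e-06). No arrays overlapped between the groups. *gst-39* fell by 1.87 and *ugt-62*, a UDP-glucuronosyltransferase gene, by 1.66 on the log2 scale. The others were *cyp-13A10* (a cytochrome P450 gene, -1.88), *C08F11.13* (-1.88) and *E01G4.3* (-1.59). With the offset of 21.1 the 8 moderate rises ran from 1.47 to 1.88 and the 8 moderate falls from -1.94 to -1.55, close to their values without it.

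**Figure D3:**
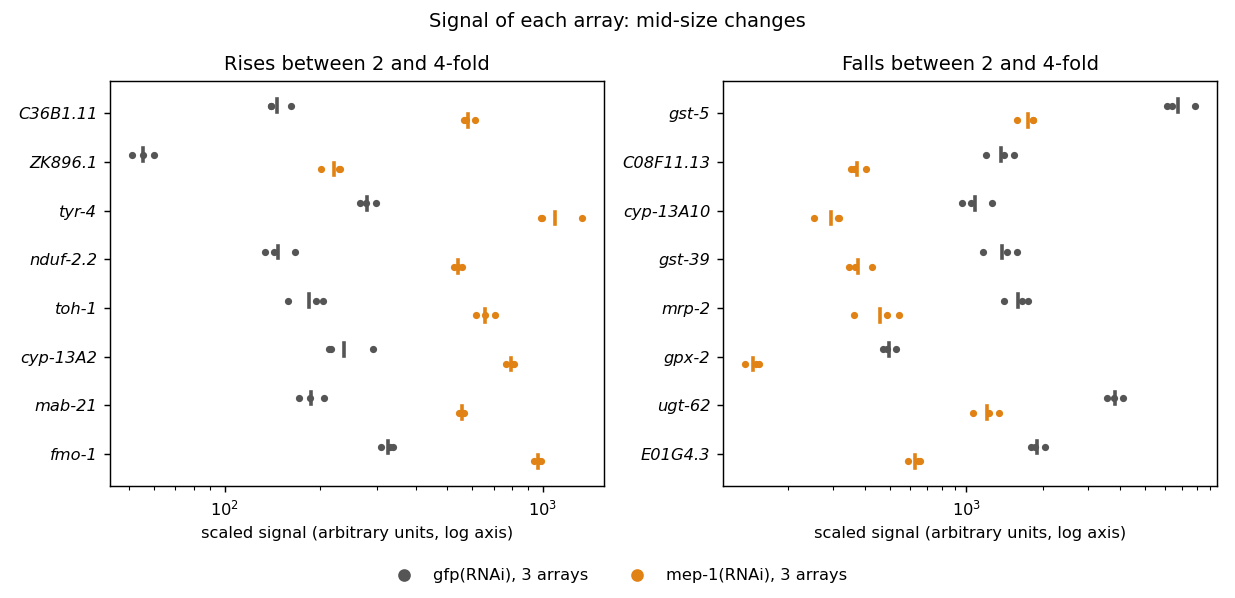
Scaled signal (log scale) of the 8 rises (left) and 8 falls (right) with the smallest p among changes of 2- to 4-fold. Dots are single arrays, 3 for each group, and bars the geometric mean of 3. The groups do not overlap in any of these genes, which the choice by smallest p favours. The control means run from 55.5 to 326 for the rises and from 497 to 6789 for the falls.

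Germline genes rose as several groups, in genes that work at different steps of germ cell development. Some genes are in more than 1 list, such as *csr-1* among P granule and Argonaute genes, so the lists are not independent. Germ cells keep their identity through P granules, small RNA pathways and translational control, and they later enter meiosis, in which homologous chromosomes pair, synapse and recombine. Of 28 P granule genes 15 rose and 0 fell, a share of 53.6% against 7.25% of all genes, with a median log2 fold change of 1.59 against 0.02. *glh-1*, a Vasa-like RNA helicase of P granules, read 250.0, 257 and 289.8 in *gfp(RNAi)* larvae and 3079, 3234 and 3119 in *mep-1(RNAi)* larvae, a log2 fold change of 3.57 (SE 0.16, adjusted p = 1.0e-07). *deps-1*, which P granules need to assemble, read 88.5, 90.2 and 85.3 against 670.1, 1008 and 1214, and *pgl-1*, a scaffold protein of P granules, read 164.4, 184 and 153 against 624, 793 and 733. The groups were far apart in all 3. *cgh-1*, an RNA helicase that is also in somatic granules, read 1070.4, 1114 and 998 against 1467, 1514 and 1372, and its log2 fold change of 0.45 was under the fold limit (adjusted p = 0.028).

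Genes of meiotic chromosomes and of recombination rose as well. Of 20 genes of the meiotic axis, synaptonemal complex and pairing 14 rose (70%), with a median log2 fold change of 1.52. Of 22 recombination genes 9 rose (40.9%), with a median of 0.63, against 7.25% of all genes, and 0 of either list fell. On signals as deposited 9 and 3 of them rose, and with quantile normalization 14 and 7. The difference between these lists was not tested. *syp-1*, a structural protein of the synaptonemal complex, read 27.1, 65.8 and 52.3 against 495, 619 and 626, a log2 fold change of 3.67 (SE 0.28, adjusted p = 4.4e-06). *him-3*, a HORMA domain protein of the chromosome axis, read 71.8, 49.5 and 60.5 against 429, 442 and 429, a log2 fold change of 2.85 (SE 0.17, adjusted p = 6.4e-07). *rec-8*, the meiotic cohesin, read 95.9, 102 and 66.4 against 899.6, 1151 and 836. The highest control of each gene lay at least several-fold below its lowest *mep-1(RNAi)* array. *dsb-2*, needed for meiotic double-strand breaks, rose by 3.20 and *msh-5*, a crossover factor, by 2.53 on the log2 scale. *smc-3*, a cohesin subunit that mitosis uses too, read 531, 636 and 676 against 371, 380.4 and 413, and its log2 fold change of -0.66 passed the p threshold (0.016) but not the fold limit.

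Translational regulators and small RNA factors of the germline made up a further part. Of 40 genes of germline translational control 19 rose and 0 fell, a share of rises of 47.5% against 7.25% of all genes, with a median of 1.18. *mex-5*, a CCCH zinc finger protein that sets up polarity in the zygote, read 94.8, 94.7 and 80.4 against 763, 809.7 and 678, a log2 fold change of 3.06 (SE 0.14, adjusted p = 1.2e-07). *cey-2*, a Y-box RNA-binding protein, read 188, 189.6 and 146 against 1105, 1490.5 and 1856, and *gld-1*, a translational repressor, read 30.0, 37.2 and 39.8 against 323, 208 and 263. Of 22 Argonaute genes 11 rose (50% against 7.25%) and 0 fell, with a median of 1.34. *vsra-1* read 188, 206 and 159.7 against 3231, 3255 and 6844, a log2 fold change of 4.502 (SE 0.26, adjusted p = 5.0e-07), and *prg-1*, the Piwi protein that binds piRNAs, read 341, 309.6 and 296 against 4627, 5381 and 4065, one of 3.89 (SE 0.14, adjusted p = 2.7e-08). In both, every *mep-1(RNAi)* array was more than 10-fold above every control. *ppw-2*, *wago-1*, *wago-4* and *csr-1*, Argonautes of endogenous small RNAs, rose by 3.67, 3.03, 3.31 and 2.75 on the log2 scale. Of 36 other genes of the RNAi machinery 8 rose (22.2% against 7.25%) and 0 fell. On signals as deposited 4 rose, and with quantile normalization 6. Among the 8 were *rrf-2*, an RNA-dependent RNA polymerase gene (2.01), and *nrde-2*, a nuclear RNAi factor, which read 554, 655 and 574 against 1522, 1915 and 1519.6 (1.47).

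Some gene groups used by the germline gave few calls. Of 62 sperm genes 0 rose and 1 fell, 0% and 1.61% against 7.25% and 3.38% of all genes. The 1 was *spe-36* (-1.28), which was not called when any of the 6 arrays was left out (-1.38 to -1.14). Of 5 vitellogenin genes, which encode yolk proteins, 0 were called. Both lists are dim, with median control signals of 25.8 and 29.2 against 90.2 over all genes. Few calls at such signals do not show that the transcripts stayed unchanged. Of 26 early embryonic regulators 3 rose (*glp-1*, *mex-5* and *mom-2*), 11.5% against 7.25% of all genes. *mom-2* (1.104) was not called without *mep-1(RNAi)* replicate 1 (0.97), and with quantile normalization 2 of these regulators rose and 2 fell. The summed signal of the sperm genes was 2483 to 2681 in *gfp(RNAi)* and 2299 to 2957 in *mep-1(RNAi)* larvae, and that of the vitellogenins 143 to 183 against 126 to 203. The sum of the early embryonic regulators was 3639 to 3879 against 4107 to 4697, which do not overlap. The part of the 3 genes that rose in this sum was not tested. Among 16 oocyte and eggshell genes 5 rose and 1 fell, 31.25% and 6.25% against 7.25% and 3.38% of all genes. *perm-1*, which makes the permeability barrier of the eggshell, read 15.5, 28.8 and 19.1 against 278, 312 and 353, a log2 fold change of 3.94 (SE 0.24, adjusted p = 8.8e-07). *cav-1*, a caveolin gene, read 597, 552 and 349 against 90.2, 81.3 and 282, a log2 fold change of -1.93 (SE 0.40, adjusted p = 0.0058), and batch 3 lay closer to the controls than the other batches. *glp-1*, the Notch receptor that keeps germ cells in mitosis, rose from 30.2, 28.2 and 17.4 to 180.5, 251 and 236, whereas *lag-2*, its ligand in the distal tip cells, fell from 114, 162 and 105 to 50.1, 53.8 and 41.2, with log2 fold changes of 3.16 (SE 0.26, adjusted p = 8.6e-06) and -1.37 (SE 0.25, adjusted p = 0.0025).

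Marker genes of cell types were summed to check the tissue. Of 14 germline markers 11 rose (78.6% against 7.25% of all genes), and their summed signal was 1357 to 1859 in *gfp(RNAi)* and 7589 to 8489 in *mep-1(RNAi)* larvae. Several of these markers, such as *glh-1*, *deps-1*, *gld-1* and *mex-5*, are also in the lists above, so they are no separate check. Of 13 intestine markers 1 rose and 0 fell, with a summed signal of 26026 to 26561 against 17678 to 23609. The riser was *elt-2*, the GATA factor of the intestine, at 236, 181 and 164.5 against 426, 452 and 651 (1.39), while *vha-6*, the intestinal proton pump subunit, read 2979, 2941 and 3206 against 1722, 2185 and 1403, with a log2 fold change of -0.80 under the fold limit. Of 10 pharynx markers 0 were called (summed signal 16587 to 24162 against 14410 to 17407), of 10 body wall muscle markers 0 rose and 1 fell (57174 to 58316 against 52645 to 56065), and of 13 neuron markers 0 rose and 1 fell (17916 to 20585 against 15647 to 18649). Of 8 somatic gonad and distal tip cell markers 0 rose and 2 fell, *lag-2* among them, and their summed signals of 874 to 930 and 743 to 815 did not overlap. The other was *ehn-3*, at 21.05, 26.4 and 9.67 against 4.55, 4.38 and 1.91 (-2.38), which was not called without *gfp(RNAi)* replicate 1 or 2 (-2.25 and -2.08) or *mep-1(RNAi)* replicate 3 (-1.97). The part of this cell type in the fall of *lag-2* was not tested. Of 11 hypodermis and seam markers 0 were called, and their summed signals of 7957 to 10337 and 9245 to 10791 overlapped. Sums of the germline, intestine and body wall muscle markers did not overlap between the groups, like those of the gonad markers. Markers of each of these tissues gave signal in both groups. The neuron marker that fell was *rab-3*, of synaptic vesicles (-1.12), which was not called without *mep-1(RNAi)* replicate 2 (-0.92), and the muscle marker was *unc-22*, which encodes the giant protein twitchin (-1.51).

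The second large set of rises held genes of the intracellular pathogen response. This response, known from infection of the intestine by microsporidia and Orsay virus, includes the *pals* genes and genes of ubiquitin ligases such as *cul-6* and *skr-5*. Of 27 genes of the response 20 rose (74.1% against 7.25% of all genes) and 0 fell, with a median log2 fold change of 5.55 (3.59 with the offset). *pals-5*, whose promoter drives a widely used reporter of the response, read 4.42, 2.58 and 6.35 in *gfp(RNAi)* larvae and 586, 561 and 951 in *mep-1(RNAi)* larvae, a log2 fold change of 7.35 (SE 0.33, adjusted p = 1.1e-07). *pals-6* read 23.4, 29.7 and 15.5 against 2890.3, 2662 and 3489, a log2 fold change of 7.08 (SE 0.21, adjusted p = 6.3e-09). *eol-1*, related to the decapping exonuclease DXO of mammals, read 29.7, 32.5 and 35.7 against 3092, 3019.7 and 3139.8, a log2 fold change of 6.57 (SE 0.12, adjusted p = 1.6e-10), and its 3 arrays within each group lay closer together than those of *pals-5* and *pals-6*. The median of the list was 5.39, 5.29 and 5.94 in batches 1, 2 and 3. The regulators *pals-22*, which holds the response off, and *pals-25*, which promotes it, were not called. *pals-22* read 143, 153 and 157 against 229, 186 and 291, with a log2 fold change of 0.62 (SE 0.22, adjusted p = 0.077), and *pals-25* had one of 0.46 (SE 0.22, adjusted p = 0.19).

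Some substrate adaptors of ubiquitin ligases rose with them, and among F-box genes the rises were mainly in the *fbxa* family. Of 310 F-box genes 57 rose and 7 fell, a share of rises of 18.4% against 7.25% of all genes. Of the 57 risers, 53 were among the 171 *fbxa* genes. Only 2 of 95 *fbxb* and 2 of 44 *fbxc* genes rose, in both families a smaller share than the 7.25% of all genes. Of 103 MATH and BTB domain genes 38 rose and 2 fell, 36.9% and 1.94% against 7.25% and 3.38%, with a median of 0.99. The rises included 21 of 47 *math* and 12 of 38 *bath* genes. On signals as deposited 23 genes of this list rose and 1 fell. *fbxa-163* read 4.29, 4.26 and 11.3 against 753, 948 and 1500.2, a log2 fold change of 7.43 (SE 0.36, adjusted p = 1.7e-07), and *fbxa-182* read 30.95, 29.8 and 21.7 against 950.3, 1035 and 1022, one of 5.20 (SE 0.24, adjusted p = 1.2e-07). *math-20* read 282, 219 and 165 against 1337, 1089.8 and 1219.7, a smaller change from a brighter control (log2 fold change 2.48, SE 0.20, adjusted p = 5.7e-06). A member that fell was *fbxa-152*, at 125, 144 and 113 against 38.8, 41.7 and 59.2 (-1.47). Among 25 Skp1-related and cullin genes 4 rose, 16% against 7.25%. The cullin *cul-6* read 277, 269 and 364 against 863, 1103 and 1842 (log2 fold change 2.00, SE 0.25, adjusted p = 2.1e-04) and the Skp1-related *skr-4* 64.2, 45.9 and 47.8 against 1589, 819 and 1757 (log2 fold change 4.66, SE 0.30, adjusted p = 1.1e-06). Of 33 proteasome genes 1 rose (*rpn-6.2*, 1.201), 3.03% against 7.25% of all genes. It was not called without *gfp(RNAi)* replicate 3 (0.90) or *mep-1(RNAi)* replicate 2 or 3 (1.102 and 1.17). These families hold many related genes, and the part of cross-hybridisation among them was not tested.

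Genes of defence against bacteria fell more often than all genes, while their share of rises did not exceed that of all genes. Of 220 C-type lectin genes 14 rose and 19 fell, 6.36% and 8.64% against 7.25% and 3.38% of all genes. *clec-60* read 31.2, 21.4 and 32.1 against 2921, 3429 and 4248, a log2 fold change of 6.97 (SE 0.20, adjusted p = 4.6e-09), and *clec-48* read 315, 363 and 418 against 102, 64.9 and 67.4, one of -2.25 (SE 0.27, adjusted p = 1.4e-04). Of 16 lysozyme genes 0 rose and 4 fell, 25% against 3.38%. *lys-4* read 2522, 1782 and 2227 against 587, 509 and 795, a log2 fold change of -1.80 (SE 0.19, adjusted p = 5.7e-05). *lys-2* and *lys-8* had log2 fold changes of -1.23 and -1.07, and neither was called without *mep-1(RNAi)* replicate 3 (-0.89 and -0.68). Of 57 genes of antimicrobial peptides and infection response 4 rose and 9 fell, 7.02% and 15.8% against 7.25% and 3.38%, and the median of the list was -0.51, -0.18 and 0.21 in batches 1, 2 and 3. *irg-4* read 3147, 3184 and 2999 against 634, 688 and 216, with replicate 3 lowest (log2 fold change -2.77, SE 0.35, adjusted p = 2.0e-04), and *irg-3* 414, 447 and 469.5 against 92.4, 86.1 and 57.2 (log2 fold change -2.53, SE 0.21, adjusted p = 9.5e-06). *spp-18*, a saposin-like gene, rose from 510.2, 338 and 232 to 1519.8, 1443 and 1397 (log2 fold change 2.09, SE 0.25, adjusted p = 1.3e-04).

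**Figure D4:**
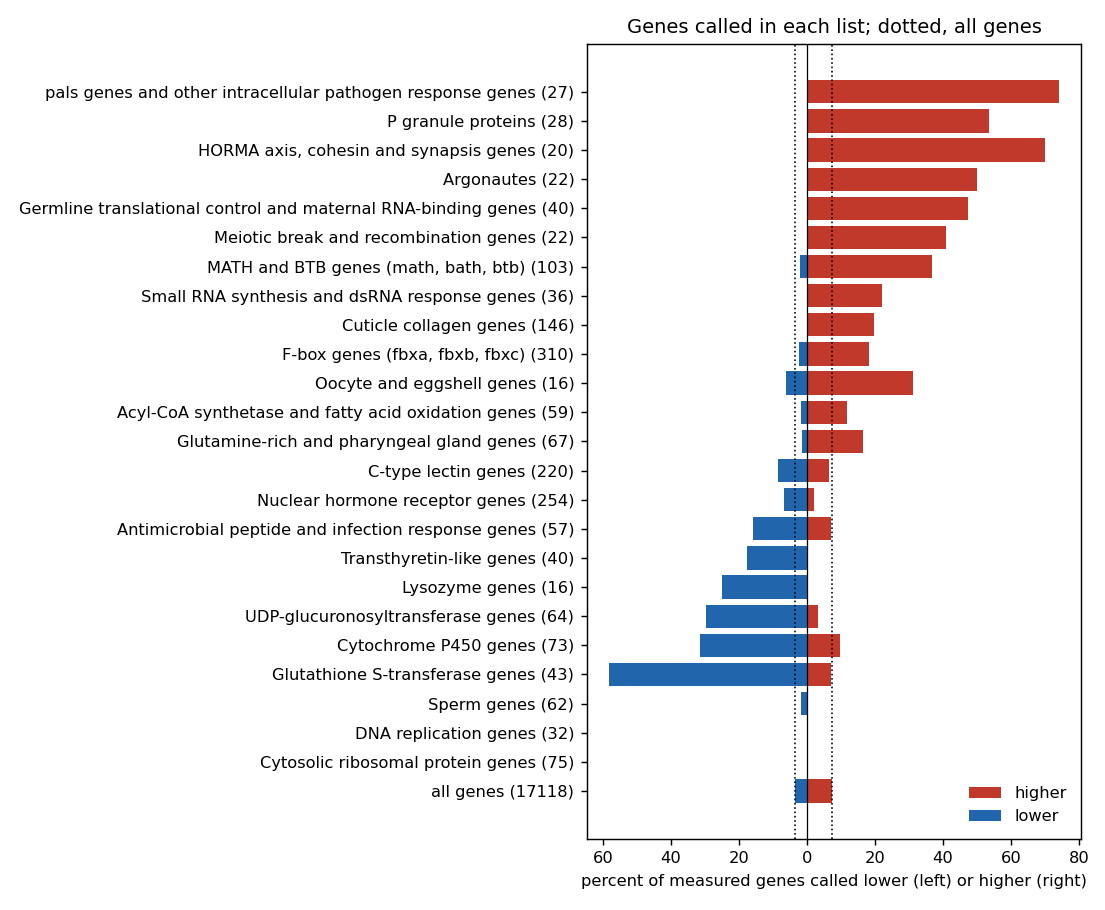
Percent of the measured genes of each list that were called higher (bars to the right) or lower (bars to the left) in *mep-1(RNAi)* larvae, with dotted lines at the shares of all genes, 7.25% and 3.38%. Bars of the pathogen response, P granule and meiotic axis genes reach far to the right, and that of the glutathione S-transferases far to the left.

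Part of the falls were in genes that detoxify foreign compounds. In worms, as in other animals, cytochrome P450 enzymes oxidise such compounds, glutathione S-transferases and UDP-glucuronosyltransferases conjugate them, and ABC transporters export the products, much of it in the intestine. Of 43 glutathione S-transferase genes 25 fell and 3 rose, a share of falls of 58.1% against 3.38% of all genes, with a median log2 fold change of -1.34. *gst-33* read 621, 517 and 722 in *gfp(RNAi)* larvae and 38.3, 50.5 and 57.4 in *mep-1(RNAi)* larvae, a log2 fold change of -3.67 (SE 0.23, adjusted p = 9.9e-07). *gst-4*, a target of the oxidative stress factor SKN-1, read 1127, 1191 and 1627 against 263, 205 and 187, one of -2.58 (SE 0.18, adjusted p = 2.0e-06). *gst-7*, a brighter gene, read 5599.6, 4413 and 5217 against 1163, 1133 and 1197 (log2 fold change -2.12, SE 0.15, adjusted p = 2.5e-06). Every control lay above every *mep-1(RNAi)* array in these. A gene that went the other way was *gst-22*, at 95.7, 85.5 and 89.8 against 369, 352 and 785 (log2 fold change 2.37, SE 0.26, adjusted p = 7.8e-05). The median of the list was -1.46, -1.14 and -1.31 in the 3 batches and -1.03 with the offset.

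Cytochrome P450 and UDP-glucuronosyltransferase genes fell in part. Of 73 cytochrome P450 genes 23 fell and 7 rose (31.5% and 9.59% against 3.38% and 7.25% of all genes, median -0.56), and of 64 UDP-glucuronosyltransferase genes 19 fell and 2 rose (29.7% and 3.12%, median -0.67). By subfamily, 7 of 9 *cyp-13A* genes, 8 of 18 *cyp-33* genes and 3 of 10 *cyp-35* genes fell, and 3 of 4 *cyp-31* genes rose. *cyp-35A4* read 805, 703 and 785 against 64.2, 76.4 and 75.7, a log2 fold change of -3.41 (SE 0.17, adjusted p = 2.4e-07), and *cyp-13A5* 3887, 3437 and 3849 against 296, 361 and 478, one of -3.32 (SE 0.21, adjusted p = 1.0e-06). *cyp-31A3*, of the subfamily that acts in making the eggshell, read 17.5, 23.2 and 17.3 against 167, 150.2 and 162, one of 3.06 (SE 0.22, adjusted p = 3.1e-06). *ugt-61* read 3199.5, 3415 and 3560.5 against 942, 993 and 523 (log2 fold change -2.104, SE 0.21, adjusted p = 3.5e-05), and *ugt-43* rose from 4.19, 8.77 and 11.22 to 177, 142 and 88.0 (log2 fold change 4.13, SE 0.39, adjusted p = 2.2e-05). Of 8 *mrp* genes 3 fell (37.5% against 3.38%), of 13 *pgp* genes, also ABC transporters, 4 fell (30.8%), and 0 of either rose. Of 254 nuclear hormone receptor genes 17 fell and 5 rose, 6.69% and 1.97% against 3.38% and 7.25%. *nhr-178* fell by 2.35 and *nhr-61* rose by 2.21 on the log2 scale. The summed signal of the intestine markers was lower too, as given above, and its part in these falls was not tested.

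Of 27 oxidative and metal stress genes 1 rose and 4 fell, 3.7% and 14.8% against 7.25% and 3.38% of all genes. *ftn-1*, a ferritin gene, read 551, 531 and 283.6 against 63.8, 81.4 and 108, a log2 fold change of -2.40 (SE 0.29, adjusted p = 1.6e-04). *cdr-1*, named for its response to cadmium, fell by 2.18 and *cdr-2* by 1.62 on the log2 scale. *ctl-2*, a catalase gene, rose from 879, 1021 and 974 to 2357, 2819.8 and 1996 (log2 fold change 1.31, SE 0.17, adjusted p = 3.0e-04). Of 59 heat shock and chaperone genes 2 rose and 3 fell, 3.39% and 5.08% against 7.25% and 3.38% of all genes. The falls included subunits of the cytosolic chaperonin, *cct-8* at 532, 462 and 546 against 171, 154 and 144 (log2 fold change -1.72, SE 0.17, adjusted p = 3.9e-05) and *cct-3* (-1.54).

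Genes of the respiratory chain rose about as often as all genes. Of 42 such genes 3 rose and 0 fell, 7.14% and 0% against 7.25% and 3.38% of all genes, with a median of 0.00. Some of the called genes have a second copy, and those copies were picked for mention after their values were seen. *asb-1*, a germline-enriched copy of the ATP synthase b subunit, read 377, 308 and 369.7 against 1957, 2468 and 2196, a log2 fold change of 2.65 (SE 0.14, adjusted p = 3.3e-07), while the other copy *asb-2* read 4265, 3748 and 4545 against 3879, 3777 and 3709.9 (log2 fold change -0.14, SE 0.14, adjusted p = 0.58). *nduf-2.2*, a copy of a complex I subunit that the list does not hold, read 134, 166 and 143 against 540.5, 527 and 557 (log2 fold change 1.88, SE 0.14, adjusted p = 3.0e-06), and the other copy *gas-1* 3226, 3343 and 3615 against 3837, 4358 and 3482 (log2 fold change 0.19, SE 0.15, adjusted p = 0.44). *sdha-2*, a copy of the complex II flavoprotein, read 136, 99.8 and 75.7 against 2811, 2481 and 1813 (log2 fold change 4.53, SE 0.22, adjusted p = 1.8e-07), and *sdha-1* 523, 517 and 535 against 722, 547 and 604 (log2 fold change 0.24, SE 0.17, adjusted p = 0.4). Whether the copies of a pair differ in their response was not tested. The other member that rose was *ucr-2.3* (1.14), of complex III, which was not called on signals as deposited (0.85).

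Lipid genes changed in both directions. Of 59 beta-oxidation genes 7 rose and 1 fell, 11.9% and 1.69% against 7.25% and 3.38% of all genes. On signals as deposited 2 rose and 1 fell, and with quantile normalization 7 and 1. *acox-3*, an acyl-CoA oxidase gene, read 814, 1164 and 1242 against 4326, 4750.3 and 4021 (log2 fold change 2.04, SE 0.18, adjusted p = 1.4e-05). *fat-5*, a delta-9 desaturase gene, read 460.2, 610.5 and 619 against 41.6, 55.4 and 78.2 (log2 fold change -3.30, SE 0.24, adjusted p = 2.9e-06) and was the member called among 20 fatty acid synthesis genes. *far-2*, which encodes a fatty acid and retinol binding protein, rose from 1021, 584 and 593 to 5282, 6421 and 3569 (log2 fold change 2.81, SE 0.27, adjusted p = 2.7e-05), and *lipl-1*, a lysosomal lipase gene, from 57.6, 74.7 and 58.4 to 478, 352 and 425 (log2 fold change 2.72, SE 0.17, adjusted p = 1.2e-06). Of 25 lipase genes 5 rose and 2 fell, 20% and 8% against 7.25% and 3.38%, while with quantile normalization 3 rose and 2 fell and on signals as deposited 2 rose and 1 fell.

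Genes of the cuticle and its processing rose, and transthyretin-related genes fell. Of 146 cuticle collagen genes 29 rose and 0 fell, 19.9% against 7.25%, with a median of 0.45, and 61 of their probe sets are of the kind that can match several transcripts. *col-91* read 166, 117 and 95.9 against 1201, 1426 and 1476, a log2 fold change of 3.47 (SE 0.20, adjusted p = 6.4e-07), and *col-39* 935, 1052 and 1229.8 against 4317, 4834 and 4075, one of 2.05 (SE 0.15, adjusted p = 3.7e-06). *col-12*, a collagen gene bright in controls, read 4895, 4461 and 4054 against 9209, 10184 and 8918 (log2 fold change 1.08, SE 0.17, adjusted p = 9.9e-04), and was not called on signals as deposited (0.80, adjusted p = 0.07). *abu-15*, of a family of glutamine- and asparagine-rich pharyngeal cuticle proteins, read 452, 311 and 149 against 2628, 2598 and 1980.0 (log2 fold change 3.11, SE 0.32, adjusted p = 4.1e-05), and replicate 3 was the lowest in both groups. Without *gfp(RNAi)* replicate 3 its value was 2.67. Of 33 *nas* astacin protease genes 8 rose and 0 fell (24.2% against 7.25% of all genes). The same array moved these most in several cases, *nas-1* from 4.05 to 3.34, *nas-7* from 1.89 to 1.35 and *nas-36* from 1.53 to 0.99 without it, and *nas-36* was then not called. Leaving out *gfp(RNAi)* replicate 2 (1.62) or any 1 of the *mep-1(RNAi)* arrays (1.23 to 1.68) also ended the call of *nas-36*, as did leaving out *let-418(RNAi)* replicate 1 or 2 (adjusted p = 0.053 and 0.051), which are in the same fit. Leaving out *gfp(RNAi)* replicate 2 (1.74) or *mep-1(RNAi)* replicate 1 or 2 (2.26 and 2.33) ended that of *nas-20* (2.35). Of 15 *asp* aspartyl protease genes 0 rose and 3 fell (20% against 3.38%), with *asp-14* at 1229, 1492 and 1257 against 323, 294 and 110.3 (log2 fold change -2.59, SE 0.32, adjusted p = 1.9e-04). Of 40 transthyretin-related genes 7 fell and 0 rose, 17.5% and 0% against 3.38% and 7.25% of all genes. *ttr-44* read 1087, 941 and 748 against 255, 178 and 166 (log2 fold change -2.22, SE 0.19, adjusted p = 1.1e-05) and *ttr-17* 2044, 1845 and 1699 against 622, 559.8 and 805 (log2 fold change -1.51, SE 0.22, adjusted p = 6.7e-04). The median of this list was -0.48, -0.51 and 0.05 in batches 1, 2 and 3, so the shift of the list as a whole was not seen in batch 3.

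Timing and cell fate genes gave a few changes. *lin-28*, an RNA-binding protein that holds early larval fates, fell from 755, 699 and 647 to 139, 64.8 and 126, a log2 fold change of -2.75 (SE 0.33, adjusted p = 1.4e-04), and *lin-46*, which acts in opposition to it, rose from 90.5, 82.2 and 80.5 to 317, 290.2 and 183 (log2 fold change 1.60, SE 0.21, adjusted p = 2.9e-04). *eat-4*, the vesicular glutamate transporter of neurons, fell from 378, 466 and 548 to 143, 178 and 219 (log2 fold change -1.37, SE 0.21, adjusted p = 8.1e-04), and *ins-4*, an insulin-like peptide gene, rose from 27.1, 23.2 and 16.6 to 185, 193 and 143 (log2 fold change 2.98, SE 0.25, adjusted p = 8.8e-06). Of 83 neuropeptide genes 1 rose and 2 fell, and of 1236 chemoreceptor genes 11 rose and 15 fell, 0.89% and 1.21%. Of 75 ribosomal protein genes 0 rose and 0 fell, with a median of -0.05. Of 32 DNA replication genes 0 were called, although 9 passed the p threshold with smaller changes, such as *mcm-7*, which encodes part of the MCM helicase, at 1492, 1993 and 2135 against 1028, 1116 and 846 (log2 fold change -0.90, SE 0.16, adjusted p = 0.0026), and *rnr-1*, a ribonucleotide reductase gene (log2 fold change -0.93, SE 0.14, adjusted p = 8.8e-04). *alh-7*, an aldehyde dehydrogenase gene, fell from 261, 281 and 272 to 106, 140.4 and 112.3 (log2 fold change -1.19, SE 0.18, adjusted p = 6.6e-04).

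Called genes often lay beside a gene called in the same direction. A neighbour is the next measured protein-coding gene on the chromosome, so unmeasured genes may lie between. In the gene order of the WBcel235 annotation, which held 16206 of the measured genes, 403 of 1170 genes that rose (34.4%) had a neighbour that rose, while 13.6% of all genes had one. Of 564 genes that fell, 18.4% had a neighbour that fell, against 6.71% of all genes. There were 17 runs of 4 or more neighbours called the same way, 13 of rises and 4 of falls, with 80 genes in all. The longest had 9 genes and held *C17H1.2*, *Y26D4A.21*, *pals-2*, *pals-12*, *pals-4*, *pals-11*, *pals-5*, *pals-6* and *pals-15*, with log2 fold changes of 3.03 to 8.39 from mean control signals of 1.87 to 22.9. A run of 5 F-box genes, *fbxa-163*, *fbxa-164*, *fbxa-165*, *fbxa-166* and *fbxa-158*, rose by 3.46 to 7.68 on the log2 scale. A run of 4, *F26F2.1*, *F26F2.3*, *F26F2.4* and *F26F2.5*, rose by 6.62 to 7.40. In these runs several values depended on 1 dim control, for example *pals-15* (4.39, or 5.48 without *gfp(RNAi)* replicate 3), *fbxa-158* (7.68, or 6.44 without *gfp(RNAi)* replicate 1) and *F26F2.3* (7.40, or 8.36 without *gfp(RNAi)* replicate 3).

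Of the 4 runs that fell, 3 held detoxification genes. The genes *cyp-13A4*, *cyp-13A5*, *cyp-13A6*, *cyp-13A7* and *cyp-13A8* fell together, with log2 fold changes of -4.54 to -1.80. *gst-29*, *gst-39*, *gst-31* and *Y53F4B.36* had log2 fold changes of -2.67 to -1.43. *cyp-35A4*, *C49G7.12*, *C49G7.10* and *irg-2* had log2 fold changes of -3.73 to -1.38. The last run of falls was *ttr-26*, *srg-34*, *Y51A2D.13* and *txt-14*. Among the rising runs, *far-6*, *pqn-74*, *rec-8* and *mex-5* held 2 of the germline genes above. Neighbouring genes of 1 family can share sequence, and the part of cross-hybridisation in these runs was not tested.

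**Figure D5:**
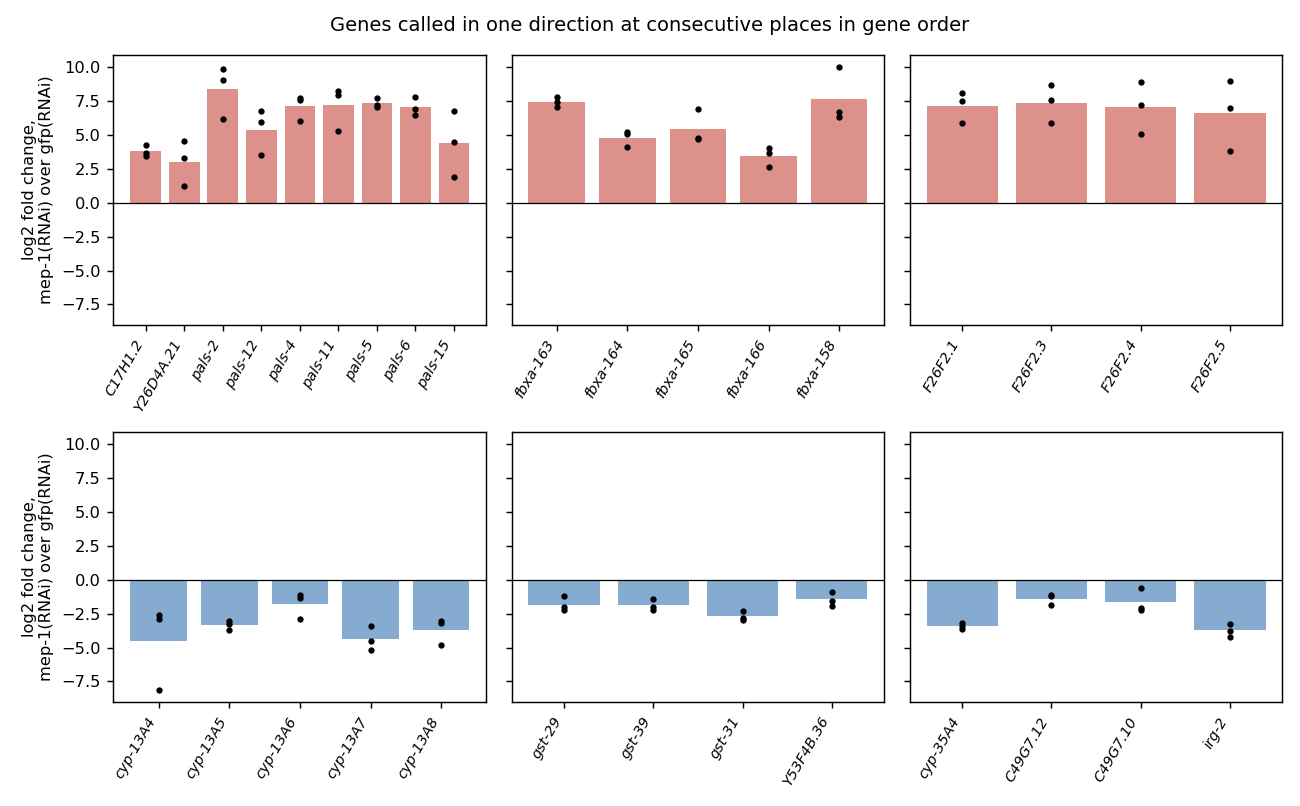
Log2 fold change of each gene in 6 runs of neighbouring genes called in the same direction, in the order of the WBcel235 annotation. Bars are the fitted values and dots the values of batches 1, 2 and 3, and all bars of a run point the same way, up to 8.39 for *pals-2* and down to -4.54 for *cyp-13A4*.

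The arrays of *mep-1(RNAi)* and *let-418(RNAi)* larvae were tested against each other directly, since both knockdowns were compared with the same *gfp(RNAi)* arrays and cannot serve as independent support for one another. In this test 1 of the 22548 probe sets was called (0.00443%), and 1264 had an unadjusted p under 0.05. Of the 1819 genes called in *mep-1(RNAi)* larvae, 92 differed at least 2-fold between the knockdowns and 1 passed the adjusted p, so differences of that size were not resolved with 3 arrays a group. The gene was *tag-293*, named here after its values were seen, and with the batch as a block (adjusted p = 0.14), with the 6 arrays alone (0.059) or without the intensity trend (0.12) it was not called. Leaving out any 1 of the *let-418(RNAi)* arrays also ended the call (adjusted p = 0.082 to 0.10). It read 54.3, 88.3 and 63.2 in *gfp(RNAi)*, 22.5, 7.48 and 15.1 in *mep-1(RNAi)* and 181, 270.2 and 192 in *let-418(RNAi)* larvae, below the controls in one knockdown and above them in the other. The next smallest adjusted p among the called genes was 0.11. Side by side, *glh-1* had log2 fold changes of 3.57 in *mep-1(RNAi)* and 3.25 in *let-418(RNAi)* larvae (adjusted p of the difference 0.88), *pals-5* of 7.35 and 7.29 (1), *gst-5* of -1.96 and -1.65 (0.89) and *ftn-1* of -2.40 and -1.14 (0.47). A p that misses the threshold does not show that the knockdowns act alike.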

How the data were processed

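The authors hybridised labelled total RNA to Affymetrix *C. elegans* Genome Arrays and deposited 1 MAS5 signal intensity (version not given) per probe set and array, a linear value. The replicates are independent batches according to the methods, which describe global scaling and a t-test. The deposited trimmed means differed between arrays, so each array was multiplied to an equal mean after 2% was trimmed at each end (target 324, factors of 0.790 to 1.55 for the 6 arrays compared), and log2 was taken with no offset. The design had assumed that this scaling was in the values. All 9 columns were matched to a sample and 0 were left unmatched.

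limma 3.58.1 in R 4.3.3 (lmFit, eBayes with an intensity trend) was fitted with 3 group means to all 9 arrays, with 2-sided tests and Benjamini-Hochberg adjustment over 22548 probe sets. On the 6 arrays the 25th percentile of scaled signals lay between 19.0 and 23.4, and 3 arrays a group limit the precision. SE is the standard error of the log2 fold change. Tables were handled with Python 3.11.15, pandas 2.3.3 and numpy 2.4.6, and figures drawn with matplotlib 3.10.9. Gene names came from the platform annotation and gene order from the start positions of protein-coding genes in WBcel235. The fit was tested on simulated data.

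The batch numbers in the labels mark shared batches and pair the arrays. Deviations of *mep-1(RNAi)* and *gfp(RNAi)* arrays of the same batch correlated at 0.05 to 0.10 (3 pairs) and those of other pairs at -0.06 to 0.01 (6 pairs). Over all groups the ranges overlapped, at -0.03 to 0.10 in the same batch (9 pairs) and -0.14 to 0.10 otherwise (18 pairs). The main fit follows the methods and has no block.

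The comparison and the gene lists, compiled from general knowledge and family names, were chosen with earlier results of these data known. Named genes were the 8 largest rises and falls among genes with a mean signal of at least 200 in the higher group, the 8 rises and 8 falls of smallest p under 4-fold, the 5 largest gains and losses of signal, *mep-1*, *let-418* and up to 6 called members of each list per direction. *hda-1*, *tag-293*, the uncalled paralogues, *cgh-1*, *smc-3*, *mcm-7*, *rnr-1*, *vha-6*, *pals-22*, *pals-25* and further genes of the runs were chosen after their values were seen. Alternatives were quantile normalization, signals as deposited, an offset of 21.1 (the 25th percentile), the dimmest 25% of probe sets left out, a fit without the intensity trend, a fit of the 6 arrays alone, the replicate block, no fold limit, the methods' t-test, gene means over probe sets and each array left out. Leaving out *let-418(RNAi)* arrays, leaving out arrays for the lists and the mean of probe sets for named genes were added after the data were seen.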

Additional observations from a re-analysis of the deposited data

Results flagged for a closer look

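The difference between the knockdowns in *tag-293* passed the test of that difference. Its effect against *gfp(RNAi)* was a log2 fold change of -2.299 in *mep-1(RNAi)* larvae (adjusted p = 0.0017, limma) and one of 1.65 in *let-418(RNAi)* larvae (adjusted p = 0.014), and the direct log2 difference was -3.95 (adjusted p = 0.011, limma). All 3 *mep-1(RNAi)* arrays lay below all 3 *gfp(RNAi)* arrays and all 3 *let-418(RNAi)* arrays above them. The adjusted p was 0.12 without the intensity trend, 0.059 with only the 6 arrays compared, 0.14 with the replicate block, and 0.099, 0.082 and 0.10 without *let-418(RNAi)* replicates 1, 2 and 3.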

How the results depend on the processing

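The 2273 called probe sets (1529 higher, 744 lower) became 1515 (456 lower) with the methods' t-test at p of at most 0.01, 1014 (757 higher, 257 lower) with that test after Benjamini-Hochberg, and 3809 (2346 higher, 1463 lower) with no fold limit, and 878 were higher with signals as deposited. Leaving out 1 array gave 1972 to 2289 (1361 to 1593 higher, 590 to 796 lower). The replicate block gave 2296 (1554 higher, 742 lower). The 1 probe set called between the knockdowns became 3 with the offset, 4 over genes by the mean of their probe sets, 83 with the methods' t-test, and 0 with that test after Benjamini-Hochberg, with no intensity trend, with only the 6 arrays compared and with the replicate block (1264 at an unadjusted p under 0.05 in the main fit). Leaving out 1 array gave 0 to 14, with 14 without *mep-1(RNAi)* replicate 3 and 0 when a *let-418(RNAi)* array was left out.

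Of 5592 pairs of a named gene and an alternative, 5283 kept direction and side of the threshold, 298 lost the call, 5 gained it and 6 changed sign, none of them in a gene that was called. With signals as deposited the log2 fold changes of *mep-1*, *let-418*, *hda-1*, *gas-1* and *sdha-1* were -0.22, -0.143, -0.199, -0.0919 and -0.0438, and that of *hda-1* ran from -0.0289 (without *mep-1(RNAi)* replicate 2) to 0.239 when 1 array was left out. The causes were not tested. Of 136 counts of lists, 20 moved over 1.5 times with the offset, 38 with signals as deposited and 13 with quantile normalization. Near-background signals limit the size of the largest rises, and 3 arrays a group limit every test.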
